A study of Drosophila melanogaster with 2 samples.

Results

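Small nuclear RNA (snRNA) genes encode the RNA parts of the spliceosome and a few related short RNAs. All 32 genes of biotype snRNA in the Ensembl annotation of dm6 were taken, out of 24254 annotated genes, and none lay on chromosome arm 2R or chromosome 4. A gene was counted as having a summit when the position of highest signal in a peak lay within 250 bp of its nearest base. The group was chosen by measured values, since these summit distances were already known, so the counts and signals are given as a description and no test was run on them. The peaks come from ChIP-seq of whole Drosophila melanogaster embryos of 0 to 24 hours. The flies were transgenic and expressed onecut fused to eGFP, and chromatin was precipitated with an anti-GFP antibody. Onecut is a sequence-specific transcription factor of the cut-homeodomain family. The 2 biological replicates form 1 group with the same genotype and age, so there is no comparison between conditions, and whole embryos mix all cell types. The deposited read-me texts list a second input beside each replicate's alignment, which they do not name and which was taken to be a control. It is not analysed here.

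U1, U2, U4, U5 and U6 snRNAs form the major spliceosome, which removes most introns. U11, U12, U4atac and U6atac take the corresponding roles in the minor spliceosome, together with U5. U7 acts in 3' end processing of histone mRNAs, and 7SK RNA holds the elongation factor P-TEFb in an inactive complex. Most snRNA genes are transcribed by RNA polymerase II and those of U6, U6atac and 7SK by RNA polymerase III. Both kinds depend on a proximal sequence element upstream of the start, to which the SNAPc complex binds. Some fly snRNAs, such as U1, U2 and U6, have several nearly identical gene copies, scattered over the genome or in small clusters, and others have a single gene.

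The upstream sequences are shown first because 31 of the 32 members share a short sequence there, whether or not they had a summit. Each line gives the 75 bases before the annotated start and the first 10 bases of the gene, in the gene's own direction. The sequences are from the Release 6 assembly of RefSeq, in dm6 coordinates, and capitals mark matches to TTCNCAA. The first 6 genes had a summit in the conservative list.
snRNA:7SKa, chr3R:7474987-7475071, minus strand: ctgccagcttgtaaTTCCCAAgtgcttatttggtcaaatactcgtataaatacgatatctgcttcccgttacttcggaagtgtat
snRNA:U1:95Ca, chr3R:23859621-23859705, minus strand: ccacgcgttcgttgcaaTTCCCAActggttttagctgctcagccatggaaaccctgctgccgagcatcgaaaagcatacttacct
snRNA:U1:21D, chr2L:901645-901729, minus strand: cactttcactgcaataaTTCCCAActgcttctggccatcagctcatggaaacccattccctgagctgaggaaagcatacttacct
snRNA:U2:34ABb, chr2L:13215764-13215848, plus strand: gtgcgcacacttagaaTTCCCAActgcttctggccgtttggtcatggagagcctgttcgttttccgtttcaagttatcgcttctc
snRNA:U4:39B, chr2L:21215169-21215253, minus strand: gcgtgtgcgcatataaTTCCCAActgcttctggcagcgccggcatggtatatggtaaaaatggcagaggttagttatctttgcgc
snRNA:U5:63BC, chr3L:3090726-3090810, plus strand: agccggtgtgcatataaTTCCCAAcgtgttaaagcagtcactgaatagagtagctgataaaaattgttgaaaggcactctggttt
The next 5 had no summit in that list. They are a U1 and a U2 copy, the U6 copy that passed in the pooled list, U11, and the second 7SK gene, which has no match to these letters in the stretch shown.
snRNA:U1:95Cc, chr3R:23826259-23826343, plus strand: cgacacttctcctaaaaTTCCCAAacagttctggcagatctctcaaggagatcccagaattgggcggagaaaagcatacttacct
snRNA:U2:34ABc, chr2L:13244552-13244636, minus strand: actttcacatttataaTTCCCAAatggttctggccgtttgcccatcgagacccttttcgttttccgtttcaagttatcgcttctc
snRNA:U6:96Ac, chr3R:24557140-24557224, plus strand: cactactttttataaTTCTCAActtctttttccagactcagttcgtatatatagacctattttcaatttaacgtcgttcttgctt
snRNA:U11, chr3L:3893321-3893405, minus strand: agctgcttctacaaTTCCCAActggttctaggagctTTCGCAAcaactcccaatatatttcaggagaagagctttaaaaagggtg
snRNA:7SKb, chr3R:23432794-23432878, plus strand: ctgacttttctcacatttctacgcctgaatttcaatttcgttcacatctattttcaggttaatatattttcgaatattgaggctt

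Between 30 and 90 bases upstream of the start, on the gene's strand, a match to TTCNCAA was present in 31 of 32 snRNA genes (96.9%), against 280 of 13945 protein-coding genes (2.01%). Only the match farthest upstream was kept for each gene, which leaves out a second match at U11, TTCGCAA, nearer its start. The kept match was TTCCCAA in 26 genes and TTCTCAA in 5. It began between 55 and 64 bases before the start, at a median of 58, and so lay at nearly the same place in every class. The 5 genes with TTCTCAA were U2:38ABb, U4:25F, U6:96Ab, U6:96Ac and LU. Only 7SKb lacked a match in this stretch. All 6 genes with a summit had TTCCCAA, but so did 20 of the 26 without, when both strands of the 300 bp from 250 bp upstream to 50 bp into the gene were searched. In the same windows TTCCCAA was found in 81.3% of snRNA promoters and in 5.26% of protein-coding promoters. TTCNCAA was found there in 96.9% of snRNA promoters and in 19.6% of protein-coding promoters, a larger share than in the narrower stretch. The letters of this motif with an open base N were chosen after the sequences were seen.

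**Figure D1:**
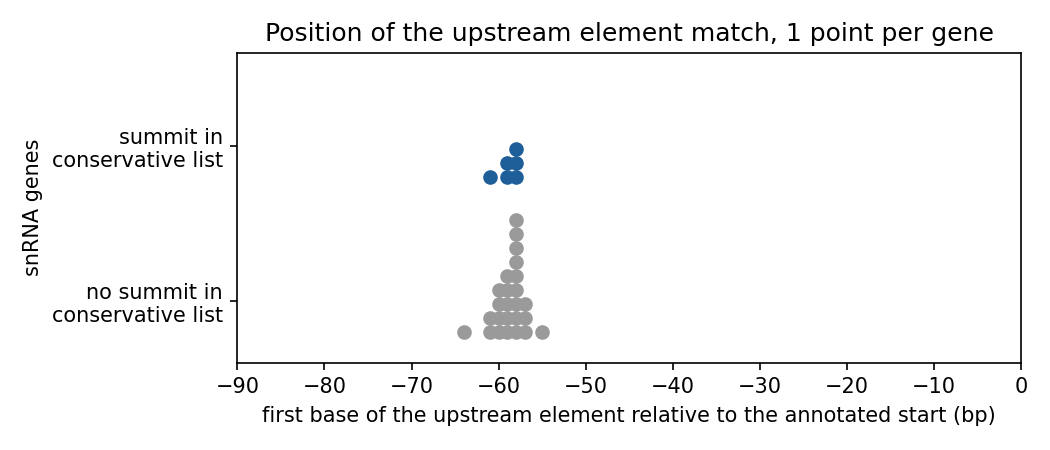
Position of the first base of the upstream match (x axis, bp from the annotated start) for 31 snRNA genes, 1 point per gene, in 2 rows by whether the gene had a summit in the conservative list. The plotted matches, the farthest upstream of each gene, lie 55 to 64 bases upstream, and the points of the upper row fall within the range of the lower row.

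In the conservative list, made from both replicates and cut at an irreproducible discovery rate (IDR, low where 2 inputs rank a peak alike) of 0.01, 6 of the 32 genes had a summit (18.8%). In the same list 18.7% of protein-coding genes had a summit within 250 bp of a transcript start, 3.79% of tRNA genes had one within 250 bp of the gene, and so did 4.46% of snoRNA genes. The 6 genes were 7SKa, 2 of 5 U1 genes, and 1 gene each of the 6 for U2, the 3 for U4 and the 7 for U5. None of the 3 U6 genes, the 4 minor-class genes, U7 or LU had a summit in that list. Joining genes within 1000 bp left 26 loci, of which 6 had a summit, so no summit was counted for more than 1 gene.

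The other lists gave similar counts and changed the genes at the margin. The list from pooled data held 7 genes (21.9%, beside 19.8% of protein-coding genes by transcript start) and added U6:96Ac. The thresholded list of replicate 1 held 6 genes (18.8%, beside 15.1%) and that of replicate 2 held 6 (18.8%, beside 17.3%). These shares of protein-coding genes are by transcript start, whereas the snRNA counts are by the nearest base of the gene. The summit counted for U11 in replicate 2 was 518 bp from the U11 start, so a rule by start would leave it out. The thresholded lists of the 2 replicates shared 4 genes: 7SKa, U1:95Ca, U4:39B and U5:63BC. The share of protein-coding genes held by both lists was not counted, so this number has no like share beside it. Replicate 1 also passed U2:34ABb and U6:96Ac, and replicate 2 also passed U1:21D and U11.

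The ranked lists, which include peaks below the threshold, held about the same number of snRNA genes in each replicate. Here too the shares of protein-coding genes are by transcript start and the snRNA counts by the nearest base of the gene. The paired shares are therefore not strictly alike. There were 16 genes in the list of both replicates (50%, beside 40.8% of protein-coding genes), 17 in the pooled list (53.1%, beside 42.1%), 16 in replicate 1 (50%, beside 39.4%) and 17 in replicate 2 (53.1%, beside 44.6%). Of the 32 genes, 21 had a summit in at least 1 of the 8 lists, and 13 of these were in ranked lists only. Like shares of protein-coding genes were not counted for these 2 numbers, and a count over 8 lists is higher for any set of genes. The 11 with none were U2:14B, U2:34ABc, U2:38ABa, U2:38ABb, U4:25F, U5:23D, U5:35D, U4atac, U6atac, 7SKb and LU.

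**Figure D2:**
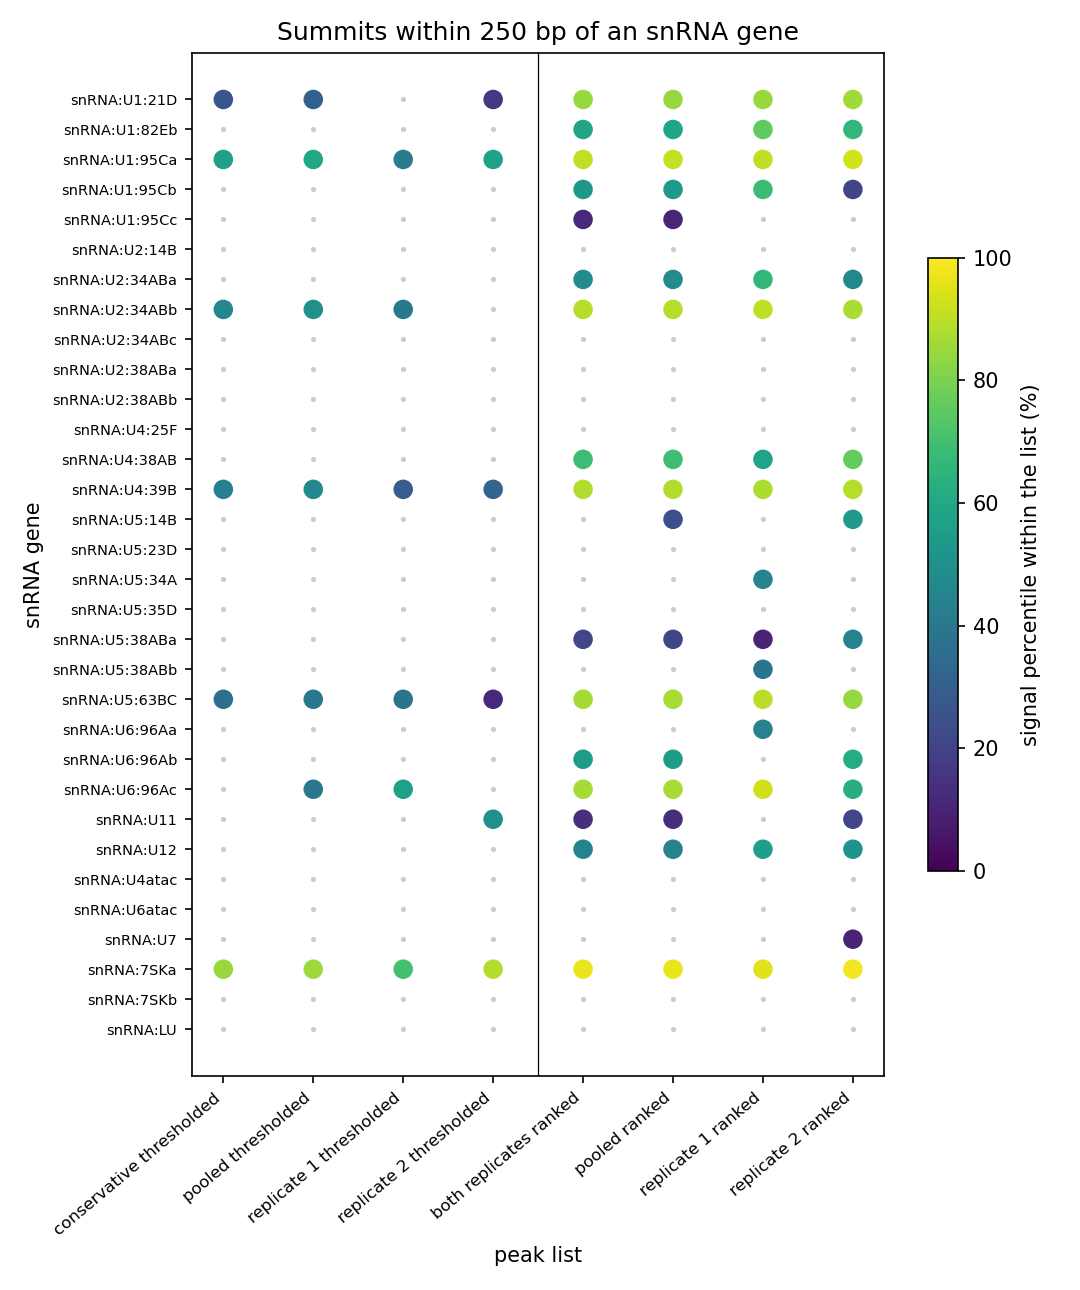
The 32 snRNA genes (rows) against the 8 peak lists (columns). A large point marks a summit within 250 bp, coloured by the percentile of its signal within that list, and a small grey point marks none; 4 genes, among them 7SKa, are filled in all 8 columns.

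7SKa had the highest peak of the group. In the conservative list its peak at chr3R:7474642-7475066 had a signal of 338.9 and rank 1055 of 6755, at the 84.4th percentile. Replicate 1 gave it a signal of 117.7, at the 70.1th percentile of its thresholded list, and replicate 2 gave 250.9, at the 88.5th. Signal values are the authors', have no stated scale and are compared only within a list. Both replicates placed 7SKa in the upper part of their list, and its IDR over both replicates was 1.8e-05. The summit lay inside the gene, 121 bp after the start, at 194 bp in replicate 1 and at 76 bp in replicate 2. The gene (FBgn0065099) spans 444 bp and overlaps no protein-coding gene, and the summit was 1094 bp from the nearest protein-coding start, that of CG1142. The second 7SK gene, 7SKb (FBgn0288809), lies in an intron of CG4374 on the other strand. Its nearest summit was a peak of signal 17.9 at 648 bp upstream in the pooled ranked list, at rank 33276 of 33286. The annotated sequences of the 2 genes share 48.9% of aligned positions. No stretch of 50 bases in either occurs a second time on the 6 chromosome arms searched.

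U1 snRNA base pairs with the 5' splice site at the first step of spliceosome assembly. All 5 U1 genes had a summit in the ranked list of both replicates. The signals in that list were 166.7 at U1:95Ca, 107.8 at U1:21D, 47.8 at U1:82Eb, 42.6 at U1:95Cb and 22.1 at U1:95Cc, against a median of 40.2 for all ranked peaks. The first pair passed the threshold and the others did not, and U1:95Cc was in the ranked list of neither replicate. At U1:95Ca (FBgn0004185) the signal was 72.3 in replicate 1 and 103.7 in replicate 2, with an IDR under the threshold in each (0.00161 and 0.000962). At U1:21D (FBgn0003916) it was 51.4 and 60.6, and the IDR was 0.0202 in replicate 1 and 0.00496 in replicate 2, so replicate 1 alone missed it. The summit of U1:95Ca was 156 bp and that of U1:21D 147 bp after the start, near the end of genes of 164 bp. In replicate 2, however, the summit of U1:95Ca was 4 bp after its start.

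The U1 genes are nearly identical in sequence, and 3 of them are hard to tell apart, but the DNA beside those 3 is not. U1:21D, U1:95Ca and U1:95Cb are identical over all 164 positions, and the lowest identity of any U1 pair was 98.2%. Every stretch of 50 bases inside each of these 3 genes occurs more than once on the 6 chromosome arms searched. None of the stretches in the 250 bp on either side of these 3 does. Inside U1:95Cc 63.5% of the stretches are repeated, and inside U1:82Eb 29.6% are. In the flanks it is 0% at U1:95Cc and 0.746% at U1:82Eb. Neither the labels nor the read-me texts state the read length or the handling of reads with several placements, and how signal inside the genes was shared among copies was not tested. U1:95Ca lies 30422 bp and U1:21D 3010 bp from the nearest protein-coding start, those of Pli and Lsp1beta, and neither overlaps a protein-coding gene. U1:95Cb and U1:95Cc lie in introns of CG34355 on its strand.

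**Figure D3:**
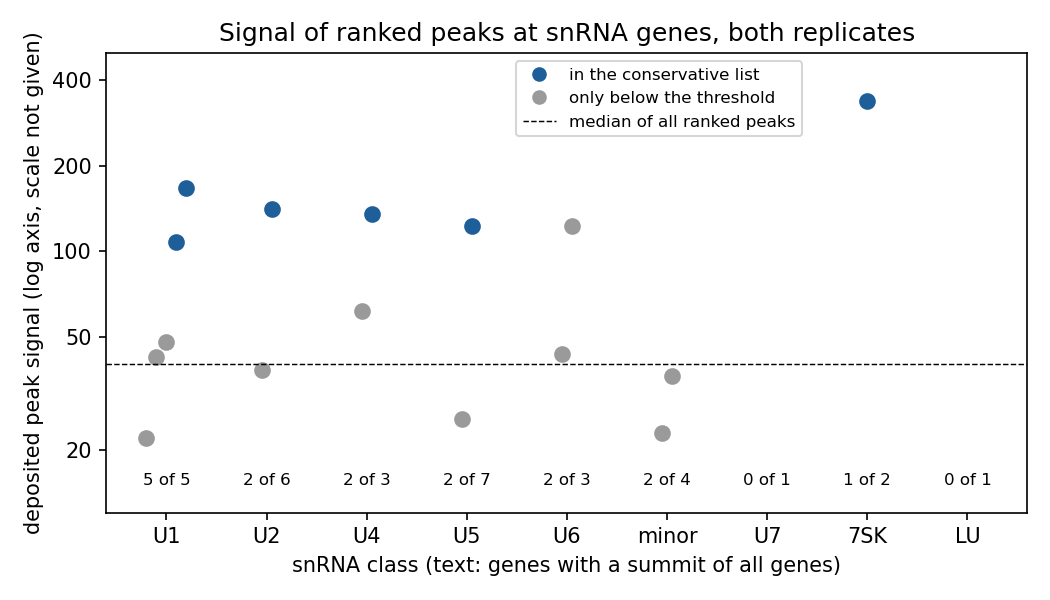
Deposited signal of the peak nearest to each snRNA gene in the ranked list of both replicates (log axis, scale not given), by class, 1 point per gene with a summit within 250 bp. Blue points, in the conservative list, run from 107.8 at U1:21D to 338.9 at 7SKa; the text under the points counts genes with a summit of all genes, and the dashed line is the median of all ranked peaks, 40.2.

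U2 snRNA pairs with the branch point of the intron. Of the 6 U2 genes only U2:34ABb (FBgn0004192) had a summit in the conservative list, 23 bp after its start, with a signal of 141.2 at rank 3626. Its IDR over both replicates was 0.000782. The signal was 71.4 in replicate 1 and 65.8 in replicate 2, at rank 3102 of 31012 and rank 4879 of 38160 in their ranked lists. Within each replicate's own list the IDR was 0.000504 in replicate 1 and 0.505 in replicate 2, so the gene was not in the thresholded list of replicate 2. The summits lay 174 bp apart, 4 bp before the start in replicate 1 and 170 bp after it in replicate 2. Of the 6 snRNA genes in the conservative list, it was the only one within 500 bp of a protein-coding start, that of kek4, a transmembrane protein with leucine-rich repeats, at 489 bp from the start of the snRNA gene. Its neighbour U2:34ABa had only a ranked peak of signal 38.3, and that summit was nearer the start of CG15482 (109 bp) than that of the snRNA gene (193 bp). The other 4 U2 genes had no summit in any list. U2 pairs were 98.4% to 100% identical, and 3 of the 4 had repeated sequence also in their flanks (43.0% of 50-base stretches at U2:34ABc and 51.2% at U2:38ABa and U2:38ABb), against 0% at U2:34ABb. U2:14B had none in its flanks. Whether that repeated sequence lowered the signal at these copies was not tested.

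U4 snRNA holds U6 in an inactive duplex until the spliceosome is activated. U4:39B (FBgn0003930) had a summit in all 8 lists, 34 bp after its start, with a signal of 135.1 in the conservative list. The values were 61.7 in replicate 1 and 73.6 in replicate 2, at the 28.9th and 31.8th percentile of the thresholded lists. It lies in an intron of Atg18b on the same strand, and it was the only one of the 6 inside a protein-coding gene, against 16 of all 32. The nearest protein-coding start was that of CG8679, 3400 bp from the summit. U4:38AB, in an intron of sick, had a ranked peak of 61.5 with an IDR of 0.0634, and U4:25F had none. U4:38AB and U4:39B were 94.4% identical and each differed more from U4:25F, down to 73.8%.

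U5 snRNA aligns the 2 exons for joining. U5:63BC (FBgn0003938) was the 1 U5 gene of 7 that passed, with its summit 91 bp after the start, in a gene of 123 bp. Its signal was 122.6 in the conservative list, 69.1 in replicate 1 and 56.1 in replicate 2, and its summits in the replicates lay 17 bp apart, the closest among the 6 genes of the conservative list. It overlaps no protein-coding gene, and its summit was 8914 bp from the start of PAN3. U5:38ABa, U5:38ABb, U5:14B and U5:34A had only ranked peaks, in 4, 1, 2 and 1 of the 4 ranked lists. U5 pairs were 78.5% to 96.1% identical.

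U6 snRNA forms the catalytic core, and its 3 genes, identical over their whole length, stand in a row on 3R with gaps of 498 and 417 bp. At U6:96Ac (FBgn0004190) a summit 108 bp before the start had a signal of 122.5 in the pooled list and passed there. In the ranked list of both replicates the same peak had an IDR of 0.193 and did not pass. The signal was 90.2 in replicate 1, with an IDR of 0.000287, and 28.2 in replicate 2, with an IDR of 0.0571. Replicate 1 thus placed it at the 92.8th percentile of its ranked list and replicate 2 at the 63.0th, the widest gap among the genes of the pooled list. Its summits were also 224 bp apart, 103 bp before the start in replicate 1 and 121 bp after it in replicate 2. Of the 2 combined thresholded lists, only the pooled one held this gene. U6:96Ab had a ranked peak of signal 43.5 in the list of both replicates, and U6:96Aa, in an intron of Esyt2, had one of 18.9 in that of replicate 1 only.

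Genes of the minor spliceosome had no summit in the conservative list, and the gene just outside the limit was one of them. Among thresholded peaks, the summit nearest to U11 was 264 bp from it in the conservative, pooled and replicate 1 lists and 244 bp from it in replicate 2, just inside. A separate ranked peak of signal 22.9 lay 58 bp from U11 in the list of both replicates, with an IDR of 0.467. The conservative peak, with a signal of 147.6 at chr3L:3892682-3892885, lay 61 bp from the start of Fie, the gene whose intron holds U11 on the other strand. The summit base with 50 bp on each side, chr3L:3892742-3892842, plus strand, are shown because they hold ATTGAT (in capitals), a form of the Onecut core ATYGAT, where Y is C or T.
Fie and U11 peak: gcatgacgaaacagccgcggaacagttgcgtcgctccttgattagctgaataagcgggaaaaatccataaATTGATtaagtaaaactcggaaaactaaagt
U12 had a summit in the 4 ranked lists, 45 to 72 bp after its start. In the list of both replicates its signal was 36.5 and its IDR 0.154. U4atac, U6atac and LU had none, and U7 had 1 in the ranked list of replicate 2 only, with a signal of 11.3.

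The 6 genes were chosen by a summit within 250 bp, and 29 of the 32 snRNA genes have no protein-coding start within 500 bp, so the distances that follow are largely set by that choice. All 6 summits lay inside the annotated gene, 23 to 156 bp after its start, and each was nearer to the snRNA start than to any protein-coding transcript start. For 5 of the 6 the nearest protein-coding start was more than 1000 bp away. In the thresholded list of replicate 2, 5 of 6 peaks (83.3%) were nearer to an snRNA start, the exception being the one at Fie and U11. Summit positions within a gene are not fixed to the base: between replicates they moved by 17 to 174 bp at these 6 genes, and 5 of the 6 peaks had the same width of 436 bp. The sample labels give a size range of 200 to 800, taken here to be fragment length in bp. A gene such as U5:63BC, of 123 bp, is shorter than that, so a place inside it is approximate.

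For some other snRNA genes the nearest conservative summit is given here, at distances outside the limit. The intron region of sick that holds U4:38AB, U5:38ABa, U5:38ABb, U2:38ABa and U2:38ABb had a conservative peak of signal 176.6 at 1036 bp from U4:38AB, but no conservative summit within 250 bp of any of the 5. U12 lies in an intron of Baldspot, and the nearest conservative summit, 6147 bp away, had a signal of 943.4 at rank 171. At U1:95Cc the nearest conservative summit was 7032 bp away and 65 bp from the start of CG33111, with a signal of 105.2 at rank 5115. These peaks were not counted for the snRNA genes.

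**Figure D4:**
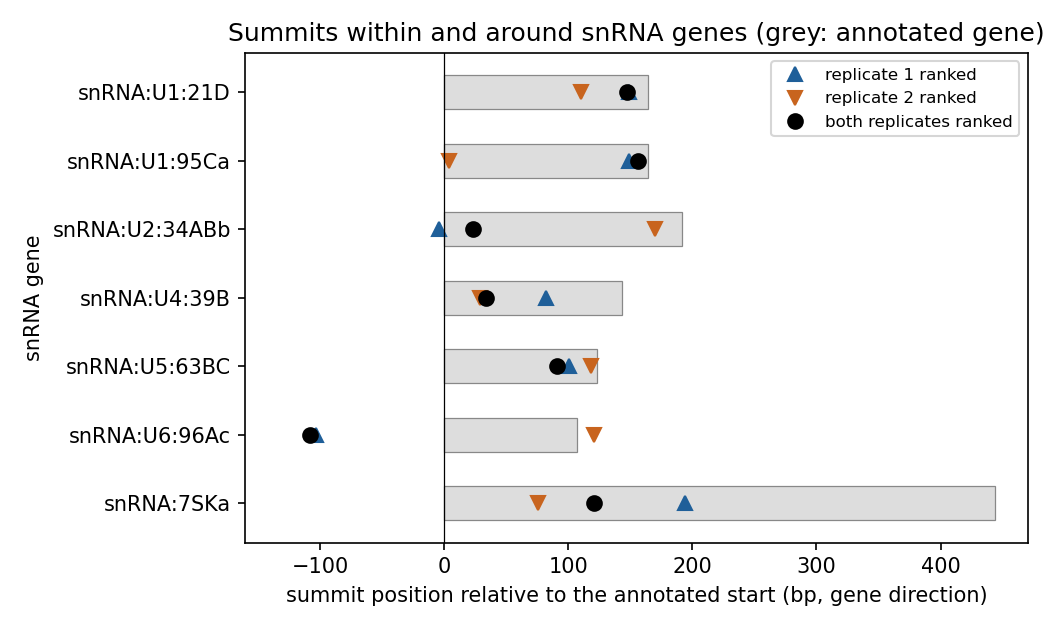
Summit positions from the ranked lists (x axis, bp from the annotated start in the direction of the gene) for the 6 genes of the conservative list and U6:96Ac, with the annotated gene in grey, replicate 1 as blue triangles, replicate 2 as orange triangles and the list of both as black points. The black points of the 6 genes lie 23 to 156 bp after the start; the summit of U6:96Ac is 108 bp before it, and the replicates differ by 17 bp at U5:63BC and by 224 bp at U6:96Ac.

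Unlike the Fie peak, none of the 6 peaks held ATYGAT within 50 bp of the summit. That is 0 of 6 (0%, exact 95% binomial interval 0 to 45.9%), against 2580 of 6747 for all summits on the chromosome arms (38.2%) and 826 of 2355 for summits within 250 bp of a protein-coding start (35.1%). The interval, which covers counting error only, reaches above both shares, and the 2 U1 windows share sequence of the gene. Within 100 bp of the summit 2 of 6 held it, 7SKa and U1:21D, against 46.4% of all summits. In replicate 2 alone the summit of 7SKa had ATYGAT within 50 bp. A further 10 genes had a summit in the ranked list of both replicates but not in the conservative one. Of their peaks, 1 held ATYGAT, the peak assigned to U6:96Ab (10%, exact interval 0.253 to 44.5%). The share among all ranked peaks was not counted, so this 10% has no like share beside it. Several of the 10 genes are near-identical copies, so the interval treats related sequences as independent. The 7SKa summit base with 50 bp on each side, chr3R:7474825-7474925, plus strand, are shown as the highest peak of the group.
7SKa summit: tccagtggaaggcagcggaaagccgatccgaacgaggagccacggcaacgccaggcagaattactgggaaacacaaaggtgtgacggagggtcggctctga

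Other promoter motifs were counted on both strands of the 300 bp promoters. ATCGAT was in 2 of 32 snRNA promoters (6.25%), against 23.3% of protein-coding promoters, and ATTGAT was in 6 (18.8%, against 21.4%). TATCGATA, the element bound by DREF, contains ATCGAT and was in 0 snRNA promoters, against 9.36%. GGTCACACT, known as Motif 1, was also in 0, against 6.05%. TATAAA, a form of the TATA box that also occurs by chance in AT-rich DNA, was in 15 (46.9%, against 45.8%). With 32 promoters, many of them copies of each other, these shares describe the sequences only.

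A list of 48 protein-coding genes that act on snRNAs was read in the same way, by a summit within 250 bp of a transcript start. Of these, 11 had one in the conservative list (22.9%, beside 18.7% of all protein-coding genes). ATYGAT was held by 2 of the 11 peaks, beside 826 of 2355 summits (35.1%) within 250 bp of any protein-coding start. Of 7 genes for snRNA transcription, 2 had a summit, Brf and Bdp1, subunits of the polymerase III factor TFIIIB, with signals of 265.4 and 257.6. The SNAPc subunit genes Pbp45, Pbp49 and Pbp95 had none, nor did Tbp or Trf. The Integrator complex cleaves the 3' ends of snRNAs, and 4 of its 14 genes had a summit, led by IntS12 with 164.7. Of 9 genes for the cap, export and assembly of snRNPs (RNAs with their proteins), 1 had a summit, Cbp20, a cap-binding subunit, with 134.9. Of 13 genes for Sm and other snRNP proteins, 2 had one, led by SmD3, a core ring subunit, with 219.02. Of 5 genes of the 7SK complex and P-TEFb, 2 had one: bin3, the enzyme that caps 7SK RNA, with 333.0, and Hexim, the P-TEFb inhibitor, with 102.9. The peak of bin3 was at rank 1082 of 6755, and Larp7, Cdk9 and CycT of this group had no summit.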

How the data were processed

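ChIP-seq peaks of onecut-eGFP were available for 2 biological replicates of whole embryos. The authors deposited 8 peak lists in dm6 coordinates, made from the replicates' alignments and a further input taken to be a control, per the deposited read-me texts. The aligner, peak caller, versions and read depth are not stated there, and depth is unknown. The deposited signal of a peak has no stated scale. The deposited score is the scaled IDR, and the ranked lists hold the deposited -log10 of the IDR. Summit offsets were deposited in bp, and the thresholded lists hold ranked peaks with an IDR of at most 0.01.

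Genes came from Ensembl release 115 and sequence from the RefSeq Release 6 assembly. Summit distances, windows of 50 bp on each side of a summit, motifs on both strands, 50-base stretches and global alignments were computed in Python 3.11.15 with Biopython 1.88, and exact 95% binomial intervals with SciPy 1.17.1; the distance step was checked on simulated summits. No test between groups was made. The members and lists were chosen with earlier results of these data known. Named were every member with a summit in the conservative list, the nearest miss, hosts and neighbours, and the highest member of each related group; further members named to account for all 32 were chosen after their values were seen. miRNA genes have no class of their own in the annotation and were not used. One planned related gene, SmG, was not found by symbol and left out.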

Additional observations from a re-analysis of the deposited data

How the results depend on the processing

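The count of 6 snRNA genes with a summit in the conservative list changed most under 2 alternatives. It was 16 with all ranked peaks and 2 in the stronger 50% of peaks, which by construction hold more and fewer peaks. It was 6 without replicate 1, 6 without replicate 2 and 4 at an IDR of 0.001. It was 5 without genes near a protein-coding start and 6 or 7 under the other distances. Shares of protein-coding genes at an IDR of 0.001 and in the stronger 50% of peaks were not counted. The median percentile of the snRNA peaks, 45.0 in the conservative list, was 47.0 in the pooled list, 63.8 with all ranked peaks, 19.7 at an IDR of 0.001 and 41.4 in the stronger 50% of peaks. Leaving out a replicate gave 40.6 to 41.0. A percentile depends on the length of its list. The related genes with a summit numbered 11 in the conservative list and 10 to 13 in the other thresholded lists, an alternative chosen after seeing the data. ATYGAT at the snRNA summits was at 33.3% without replicate 1 (2 of 6 peaks, 7SKa and the Fie and U11 peak), against 0% in the conservative list. The latter peak, 81 bp from the start of Fie, was not counted for U11 in the conservative list. The share among all peaks of replicate 2 was not counted. No paired analysis was possible because the 2 replicates form 1 group and no test was run. Unknown depth and copies with repeated sequence limit all values inside the genes.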
